A study of Homo sapiens with 16 samples.

Results

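Small nucleolar RNA (snoRNA) host non-coding RNA genes were taken as the genes named SNHG followed by a number, plus GAS5, ZFAS1, DANCR and EPB41L4A-AS1, which carry snoRNAs under other names. The rule used names only and no measured value. It gave 29 gene identifiers with 28 symbols, of 58735 identifiers in the deposited tables, since SNHG28 stood there under 2 identifiers. RNA was sequenced from BxPC3 and PANC-1, established human cell lines of pancreatic ductal adenocarcinoma, either treated with gemcitabine or kept as untreated controls. The 16 libraries fell into 4 groups of 4, which were gemcitabine-treated BxPC3, control BxPC3, gemcitabine-treated PANC-1 and control PANC-1. Gemcitabine is a deoxycytidine analogue used against pancreatic cancer, which is built into DNA and inhibits ribonucleotide reductase. The labels give neither dose nor time of treatment. Nothing in them ties the libraries of a group to different cultures, and each p-value therefore rests on library-to-library spread that could be technical.

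Most human snoRNAs are cut out of the introns of host genes. Box C/D snoRNAs guide methylation of ribosomal RNA, and box H/ACA snoRNAs guide its conversion to pseudouridine. In a non-coding host the snoRNA-bearing introns are the conserved part, and the spliced exons are commonly translated over a short reading frame and destroyed by nonsense-mediated decay. Many such hosts begin, like the mRNAs of ribosomal proteins, with a terminal oligopyrimidine (TOP) tract, a C at the first transcribed base followed by a run of C and T, which ties their translation to mTOR signalling. Several have been studied as RNAs in their own right. GAS5, growth arrest-specific 5, was found through its accumulation in growth-arrested mouse cells.

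The first annotated bases of 13 of the 21 tested hosts are shown here as examples of starts with and without such a tract, picked after the values were seen. Each line starts at the first base of a GENCODE 29 transcript (GRCh38), one with a tract where any was annotated, and runs 5′ to 3′ for 30 bases, with the uninterrupted C and T run that opens with C in capitals where it spans at least 5 bases.
GAS5, chromosome 1, minus strand, first base 173867989: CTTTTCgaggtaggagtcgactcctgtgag
SNHG16, chromosome 17, plus strand, first base 76557769: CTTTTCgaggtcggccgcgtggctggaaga
SNHG19, chromosome 16, minus strand, first base 2155358: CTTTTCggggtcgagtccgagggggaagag
SNHG5, chromosome 6, minus strand, first base 85678733: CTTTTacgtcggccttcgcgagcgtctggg
ZFAS1, chromosome 20, plus strand, first base 49278642: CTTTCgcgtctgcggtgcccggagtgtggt
SNHG8, chromosome 4, plus strand, first base 118278758: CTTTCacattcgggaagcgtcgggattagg
SNHG4, chromosome 5, plus strand, first base 139274103: CTTTCCCCTCCggcctctgccggtgctgct
SNHG12, chromosome 1, minus strand, first base 28581873: CCTTTCTCCCCgccgcattcccggtgtcga
SNHG3, chromosome 1, plus strand, first base 28506043: CCTTTTTggagacagattcgcagtggtcgc
SNHG1, chromosome 11, minus strand, first base 62855479: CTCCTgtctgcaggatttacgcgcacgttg
EPB41L4A-AS1, chromosome 5, plus strand, first base 112160529: cgggtcccaaaatacgtggtctaaagtcct
DANCR, chromosome 4, plus strand, first base 52712404: agagtcttcccgggattggctgcgggcctc
SNHG7, chromosome 9, minus strand, first base 136728184: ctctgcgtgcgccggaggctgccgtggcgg

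Depth ran from 22152034 to 37777222 reads per library. The hosts together took 0.0552% to 0.0584% of reads in gemcitabine-treated BxPC3 libraries, against 0.0613% to 0.0704% in BxPC3 controls. In PANC-1 the range was 0.0687% to 0.0727% with gemcitabine and 0.0928% to 0.0979% in controls, so in neither line did the groups overlap. This pooled share is weighted to the most abundant hosts. Over the BxPC3 libraries GAS5 had 17890 reads in controls and 7957 with gemcitabine, and SNHG5 had 13103 and 6850. By gene, 9 hosts rose and 6 fell in BxPC3 in the test below. Levels are in FPKM, fragments scaled by gene length and library depth. Fewer transcribing cells and less RNA per cell cannot be told apart in bulk RNA. The labels were checked on genes the lines are known to lack. SMAD4 had no read in any BxPC3 library and averaged 3.68 ± 0.437 FPKM in gemcitabine-treated PANC-1, against 3.84 ± 0.193 FPKM in PANC-1 controls (SD, n = 4 each). CDKN2A had no read in any library. The epithelial genes EPCAM, KRT8, KRT18 and KRT19 were expressed in all groups, while KRT7 was abundant in BxPC3 and stood at 1.17 FPKM in gemcitabine-treated PANC-1 and 0.530 FPKM in PANC-1 controls. Among fibroblast and leukocyte markers, COL1A1 was the exception to low levels, with 2.42 FPKM in gemcitabine-treated BxPC3, 1.79 FPKM in BxPC3 controls, 8.43 FPKM in gemcitabine-treated PANC-1 and 11.4 FPKM in PANC-1 controls. One library stood apart. In PANC-1 gemcitabine replicate 1 the most GC-rich quartile of genes had a median of 0.45 (log2) above the mean of the other 3 treated libraries, and for the quartile poorest in GC that median was -0.42, and the main PANC-1 results that moved without it are given both ways.

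**Figure D1:**
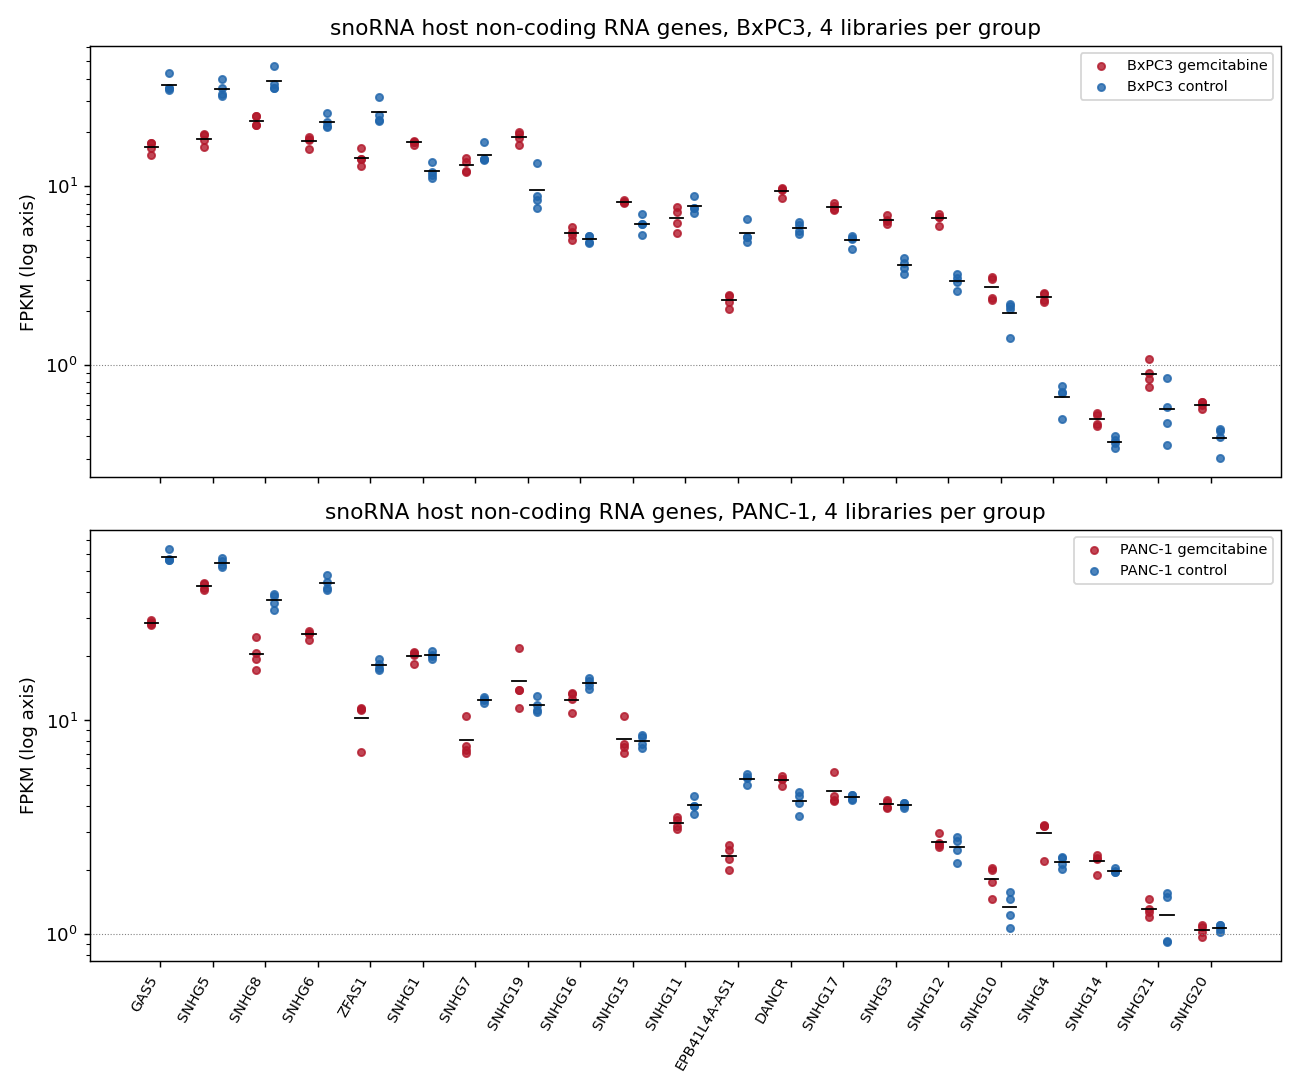
FPKM (log axis) of the 21 hosts tested in at least 1 line, by library, in BxPC3 (top) and PANC-1 (bottom), ordered by mean control level. Red points are gemcitabine libraries, blue points control libraries, black bars group means of 4 libraries, and the dotted line marks 1 FPKM. GAS5 lies below its controls in every gemcitabine library of both lines, and SNHG12 lies above them in BxPC3 with overlapping groups in PANC-1.

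Gemcitabine moved the hosts in both directions in BxPC3. GAS5, EPB41L4A-AS1, SNHG5, ZFAS1, SNHG8 and SNHG6 fell, while SNHG4, SNHG12, SNHG19, SNHG3, DANCR, SNHG17, SNHG1, SNHG15 and SNHG10 rose. SNHG11, SNHG7 and SNHG16 did not pass the test. A gene was tested where it reached 1 FPKM in at least 4 of the 8 libraries of a line, which 18 of the 29 hosts did in BxPC3. SNHG4, under 1 FPKM in every BxPC3 control, did so through its gemcitabine libraries alone, and could enter only by being higher. The test was limma on log2(FPKM + 1) over all tested genes, with Benjamini-Hochberg adjusted p under 0.05. In BxPC3 9 hosts were called higher, 6 lower and 3 neither, so 83.3% of the tested hosts were called, against a background of 73.4% of 12215 genes, of which 37.3% were higher and 36.1% lower. The called share is thus near that of all genes, and the median change was 0.21 for the tested hosts and 0.0044 for all genes. The gemcitabine libraries lay all above the controls for 9 hosts (34.3% of all genes) and all below them for 6 (33.2% of all genes).

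In PANC-1 the calls leaned downward. GAS5, EPB41L4A-AS1, SNHG8, ZFAS1, SNHG6, SNHG7, SNHG5, SNHG16 and SNHG11 fell, and DANCR, SNHG4 and SNHG10 rose. Of 21 tested hosts 3 were called higher, 9 lower and 9 neither, which is 57.1% called against a background of 44.8% of 12508 genes, 20.7% higher and 24.0% lower. The median change was -0.0090 for the tested hosts and -0.024 for all genes. Every gemcitabine library lay below every control for 9 hosts (24.5% of all genes) and above them for 1 host, DANCR (21.3% of all genes). Without PANC-1 gemcitabine replicate 1 the counts were 4 higher and 9 lower, SNHG14 being the added call, while 32.8% of all genes were then called higher and 37.0% lower. Of the 3 higher calls, DANCR alone held under every alternative processing and with each library left out in turn.

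**Figure D2:**
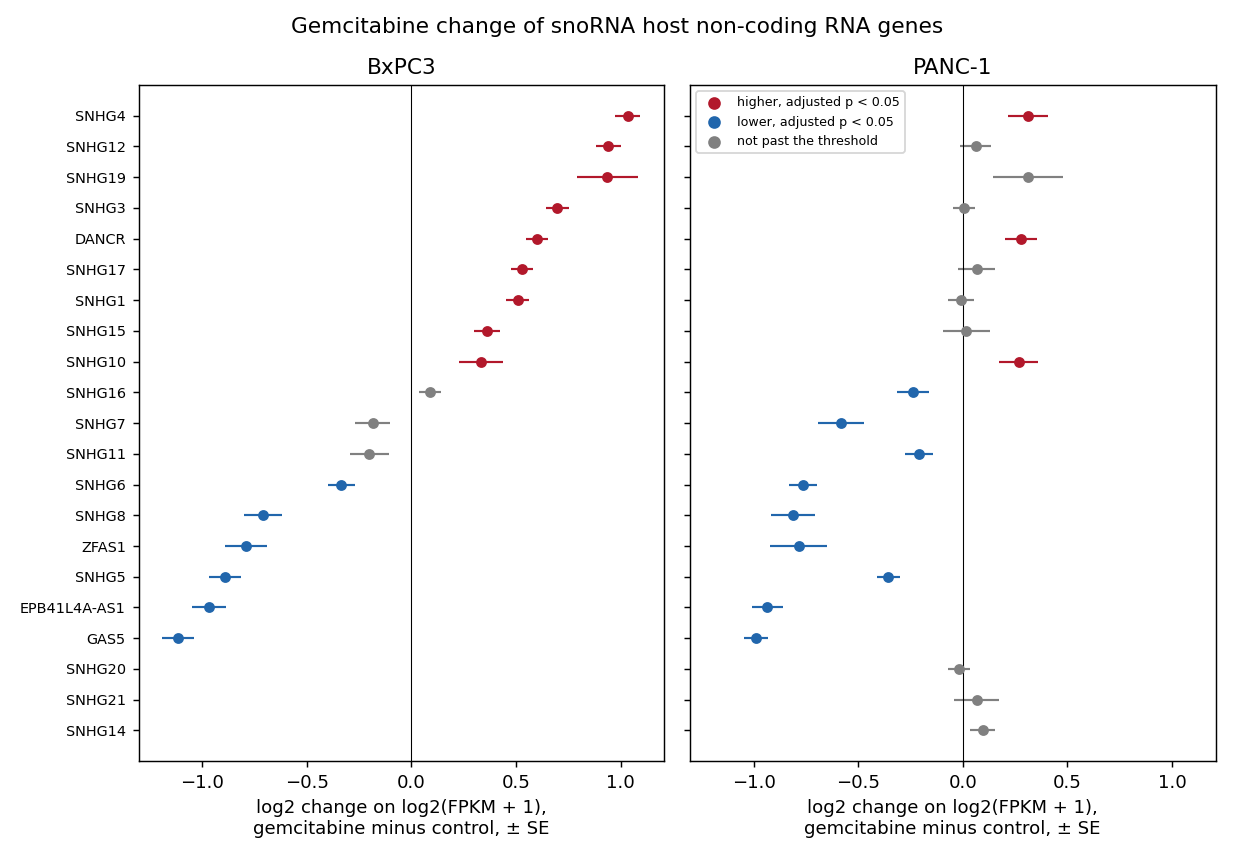
Change on the log2(FPKM + 1) scale, gemcitabine minus control, with its SE, for each tested host in BxPC3 (left) and PANC-1 (right), ordered by the BxPC3 change. Red is higher and blue lower at an adjusted p under 0.05, and grey did not pass. BxPC3 changes run from -1.12 for GAS5 to 1.03 for SNHG4, and PANC-1 changes from -0.99 for GAS5 to 0.31 for SNHG19, which did not pass.

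A set of 6 hosts fell in both lines. GAS5 (ENSG00000234741, chromosome 1, 173863900 to 173868882, minus strand), known to host several box C/D snoRNAs, had 14.9, 16.3, 17.5 and 17.4 FPKM in gemcitabine-treated BxPC3 and 35.6, 42.9, 34.4 and 35.4 FPKM in BxPC3 controls. In PANC-1 it had 28.4, 29.5, 28.9 and 28.0 FPKM with gemcitabine, against 56.4, 56.1, 56.6 and 63.2 FPKM in controls. Every treated library of either line lay below every control of that line. Its change was -1.12 ± 0.075 (SE) in BxPC3 (limma adjusted p = 4.71e-07) and -0.99 ± 0.058 in PANC-1 (limma adjusted p = 2.25e-06). The ratio of mean FPKM, gemcitabine over control, was 0.446 in BxPC3 and 0.494 in PANC-1.

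EPB41L4A-AS1 (chromosome 5, 112160526 to 112164276, plus strand), host of the H/ACA snoRNA SNORA13, had 2.05, 2.47, 2.25 and 2.43 FPKM in gemcitabine-treated BxPC3, against 5.21, 6.57, 4.88 and 5.24 FPKM in BxPC3 controls. In gemcitabine-treated PANC-1 it had 2.62, 2.47, 1.99 and 2.24 FPKM, and in PANC-1 controls 5.39, 5.62, 4.97 and 5.42 FPKM. Its levels were alike in the lines and the groups did not overlap in either. The log2 change was -0.97 ± 0.079 (SE) in BxPC3 (limma adjusted p = 2.07e-06) and -0.93 ± 0.072 in PANC-1 (limma adjusted p = 1.19e-05). By ratio of mean FPKM, 0.420 in BxPC3 and 0.435 in PANC-1, EPB41L4A-AS1 lay lower than GAS5 in both lines. On log2(FPKM + 1) the order was the reverse, with GAS5 at -1.12 in BxPC3 and -0.99 in PANC-1. The genes were not compared by a test.

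ZFAS1 (chromosome 20, 49278178 to 49295738, plus strand) starts at the head of the ZNFX1 gene on the other strand and hosts the SNORD12 family. It had 16.5, 12.99, 14.2 and 14.1 FPKM in gemcitabine-treated BxPC3 and 23.4, 31.7, 25.2 and 23.2 FPKM in BxPC3 controls. In PANC-1 it had 7.14, 11.2, 11.3 and 11.4 FPKM with gemcitabine, against 17.3, 17.5, 18.4 and 19.5 FPKM in controls. The groups did not overlap, and the lowest treated PANC-1 value was that of replicate 1. On the log2 scale the change was -0.79 in both lines, ± 0.10 (SE) in BxPC3 (limma adjusted p = 4.95e-05) and ± 0.136 in PANC-1 (limma adjusted p = 0.00153). Without PANC-1 gemcitabine replicate 1 the PANC-1 change was -0.64 (limma adjusted p = 3.07e-07).

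SNHG8 (chromosome 4, 118278709 to 118279823, plus strand), host of SNORA24, had 24.5, 20.6, 19.4 and 17.1 FPKM in gemcitabine-treated PANC-1, against 32.9, 35.5, 39.1 and 38.3 FPKM in PANC-1 controls. In BxPC3 it averaged 23.3 ± 1.56 FPKM with gemcitabine and 38.9 ± 5.67 FPKM in controls (SD, n = 4 each). Its log2 change was -0.71 ± 0.089 (SE) in BxPC3 and -0.81 ± 0.107 in PANC-1, with limma adjusted p = 4.85e-05 and 0.000314. GAS5, EPB41L4A-AS1, ZFAS1 and SNHG8 thus fell in both lines, and the test of the difference between the lines passed for none of them. Those differences, BxPC3 change minus PANC-1 change, were -0.12 (95% interval -0.33 to 0.085) for GAS5, -0.034 (-0.27 to 0.20) for EPB41L4A-AS1, -0.0073 (-0.38 to 0.37) for ZFAS1 and 0.10 (-0.21 to 0.41) for SNHG8.

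SNHG5 and SNHG6 fell in both lines by amounts that differed. SNHG5 (chromosome 6, 85660950 to 85678748, minus strand), a host of the U50 snoRNAs, had 16.5, 18.1, 19.4 and 19.6 FPKM in gemcitabine-treated BxPC3 and 32.9, 39.9, 32.0 and 35.4 FPKM in BxPC3 controls. In PANC-1 it averaged 42.5 ± 1.61 FPKM with gemcitabine and 54.7 ± 2.22 FPKM in controls (SD, n = 4 each). The log2 change was -0.89 ± 0.075 (SE) in BxPC3 and -0.36 ± 0.055 in PANC-1, with limma adjusted p = 2.60e-06 and 0.000767. SNHG5 was the 1 host whose difference between lines was negative, at -0.53 ± 0.098 (limma adjusted p = 0.000286).

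SNHG6, host of SNORD87, went the other way round. It had 23.8, 25.5, 25.7 and 26.2 FPKM in gemcitabine-treated PANC-1, against 48.0, 41.8, 40.8 and 44.2 FPKM in PANC-1 controls. In BxPC3 it averaged 17.9 ± 1.14 FPKM with gemcitabine and 22.8 ± 1.88 FPKM in controls (SD, n = 4 each). That was a log2 change of -0.33 ± 0.063 (SE) in BxPC3 and -0.76 ± 0.066 in PANC-1, with limma adjusted p = 0.000807 and 2.34e-05. The difference of 0.43 ± 0.095 passed (limma adjusted p = 0.00138).

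There were 3 hosts that fell in PANC-1 and did not pass in BxPC3. SNHG7 (chromosome 9, 136721366 to 136728184, minus strand), host of the SNORA17 pair, had 10.5, 7.60, 7.27 and 7.05 FPKM in gemcitabine-treated PANC-1, against 12.05, 12.6, 12.9 and 12.4 FPKM in PANC-1 controls. Replicate 1 was the treated library nearest to the controls. The PANC-1 log2 change was -0.58 ± 0.110 (SE) (limma adjusted p = 0.00254), and without that library it was -0.70 (limma adjusted p = 6.66e-08). BxPC3 averaged 13.1 ± 1.17 FPKM with gemcitabine and 15.0 ± 1.82 FPKM in controls, a change of -0.19 (limma adjusted p = 0.0660). SNHG16, which hosts the SNORD1 family, averaged 12.5 ± 1.17 FPKM in gemcitabine-treated PANC-1 and 14.9 ± 0.731 FPKM in PANC-1 controls, a log2 change of -0.24 (limma adjusted p = 0.0301). In BxPC3 SNHG16 averaged 5.46 ± 0.394 FPKM with gemcitabine and 5.07 ± 0.254 FPKM in controls, a change of 0.088 (limma adjusted p = 0.158). SNHG11, host of SNORA60 and SNORA71E, changed by -0.21 in PANC-1 (limma adjusted p = 0.0286) and by -0.20 in BxPC3 (limma adjusted p = 0.0751). The difference between lines passed for SNHG7 (0.40) and SNHG16 (0.33) and not for SNHG11 (0.0081, 95% interval -0.25 to 0.26).
The PANC-1 calls of SNHG16 and SNHG11 were the weakest among the lower hosts. SNHG16 lost its call without PANC-1 control replicate 1, 2 or 4 or gemcitabine replicate 2, and SNHG11 without control replicate 1, 3 or 4 or gemcitabine replicate 2, 3 or 4. Without gemcitabine replicate 1 both calls held. The changes were then -0.18 for SNHG16 (limma adjusted p = 0.0040) and -0.23 for SNHG11 (limma adjusted p = 0.00392). Over all alternatives the adjusted p ran from 0.000619 to 0.0886 for SNHG16 and from 0.00392 to 0.0889 for SNHG11. In BxPC3 SNHG7 and SNHG11 passed without gemcitabine replicate 4, with adjusted p = 0.0328 and 0.0267.

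DANCR, SNHG4 and SNHG10 rose in both lines. DANCR (chromosome 4, 52712404 to 52720351, plus strand), host of SNORA26 and known as a differentiation antagonist in human epidermal progenitors, had 9.57, 8.64, 9.65 and 9.72 FPKM in gemcitabine-treated BxPC3, against 5.41, 6.32, 6.04 and 5.66 FPKM in BxPC3 controls. In PANC-1 it had 4.93, 5.31, 5.32 and 5.52 FPKM with gemcitabine and 3.56, 4.64, 4.09 and 4.46 FPKM in controls. The treated libraries lay above the controls in both lines, by a wide gap in BxPC3 and a narrow one in PANC-1. The log2 change was 0.60 ± 0.054 (SE) in BxPC3 (limma adjusted p = 3.89e-06) and 0.28 ± 0.076 in PANC-1 (limma adjusted p = 0.0161), and the difference of 0.32 passed (limma adjusted p = 0.00999).

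SNHG4 (chromosome 5, 139274102 to 139284899, plus strand), host of 2 SNORA74 snoRNAs, had 2.33, 2.50, 2.25 and 2.54 FPKM in gemcitabine-treated BxPC3, against 0.696, 0.497, 0.762 and 0.707 FPKM in BxPC3 controls. The ratio of mean FPKM was 3.61. Every BxPC3 control lay under the filter of 1 FPKM, so SNHG4 was tested there only because its gemcitabine libraries were higher. With no filter on low values it also passed (limma adjusted p = 4.31e-06). Its log2 change was 1.03 ± 0.060 (SE) on log2(FPKM + 1) (limma adjusted p = 1.74e-07), a scale that understates changes at low levels, and 1.93 by limma-voom on the recovered reads. In PANC-1 it averaged 2.97 ± 0.510 FPKM with gemcitabine and 2.18 ± 0.130 FPKM in controls (SD, n = 4 each), a change of 0.31 (limma adjusted p = 0.0278). PANC-1 gemcitabine replicate 1 stood at 2.20 FPKM, inside the control range, while the other 3 lay between 3.20 and 3.25 FPKM. Without that library the PANC-1 change was 0.41 (limma adjusted p = 2.24e-05), whereas leaving out any other PANC-1 library ended the call. The difference between lines was 0.72 ± 0.115 (limma adjusted p = 7.86e-05), and it was 1.31 with a pseudocount of 0.1, 1.17 on TPM and 1.51 by limma-voom.

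SNHG10, which carries the small Cajal body RNA SCARNA13, averaged 2.72 ± 0.423 FPKM in gemcitabine-treated BxPC3 and 1.96 ± 0.366 FPKM in BxPC3 controls (SD, n = 4 each). In PANC-1 it averaged 1.81 ± 0.266 FPKM with gemcitabine and 1.34 ± 0.230 FPKM in controls. The changes were 0.33 (limma adjusted p = 0.0166) and 0.27 (limma adjusted p = 0.0463). Both calls were marginal, since the BxPC3 call was lost without gemcitabine replicate 3 (adjusted p = 0.0502) and with no filter on low values (adjusted p = 0.0642) and the PANC-1 call without control replicate 1, 2 or 3 or gemcitabine replicate 3 or 4, with adjusted p up to 0.124 over all alternatives.

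Another 6 hosts rose in BxPC3 and did not pass in PANC-1. SNHG12 (chromosome 1, 28578538 to 28583132, minus strand), which carries snoRNAs of both box classes, had 5.99, 6.75, 6.99 and 6.69 FPKM in gemcitabine-treated BxPC3, against 3.24, 2.92, 3.08 and 2.60 FPKM in BxPC3 controls. In PANC-1 it averaged 2.70 ± 0.181 FPKM with gemcitabine and 2.56 ± 0.310 FPKM in controls (SD, n = 4 each). Control levels were close in the lines, and the treated level was higher in BxPC3, with a ratio of mean FPKM of 2.23. The log2 change was 0.94 ± 0.061 (SE) in BxPC3 (limma adjusted p = 3.76e-07) and 0.061 ± 0.075 in PANC-1 (limma adjusted p = 0.547). Its difference between lines was 0.88 ± 0.099 (limma adjusted p = 1.86e-06).

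SNHG19 (chromosome 16, 2154797 to 2155358, minus strand), a short gene that hosts SNORD60, had 17.0, 19.5, 18.6 and 20.2 FPKM in gemcitabine-treated BxPC3, against 7.52, 8.43, 8.79 and 13.5 FPKM in BxPC3 controls. The groups did not overlap, though control replicate 4 lay well above the other controls. In PANC-1 it had 21.9, 11.4, 13.9 and 13.8 FPKM with gemcitabine and 12.97, 11.2, 10.9 and 11.9 FPKM in controls. The change was 0.94 ± 0.146 (SE) in BxPC3 (limma adjusted p = 0.000276) and 0.31 ± 0.168 in PANC-1 (limma adjusted p = 0.164), where replicate 1 was the high library and the change without it was 0.13. The difference of 0.62 passed (limma adjusted p = 0.0366), and leaving out 1 library at a time gave adjusted p over 0.05 in several cases, within 0.00238 to 0.101 over all alternatives.

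SNHG3, host of the 2 SNORA73 (U17) snoRNAs, averaged 6.48 ± 0.313 FPKM in gemcitabine-treated BxPC3 and 3.62 ± 0.312 FPKM in BxPC3 controls (SD, n = 4 each), a log2 change of 0.70 (limma adjusted p = 1.73e-06). In PANC-1 it averaged 4.06 ± 0.165 FPKM with gemcitabine and 4.03 ± 0.0976 FPKM in controls, a change of 0.0075 (95% interval -0.11 to 0.13). SNHG1, whose introns hold SNORD22 and SNORD25 to SNORD28 among others, averaged 17.6 ± 0.411 FPKM in gemcitabine-treated BxPC3 and 12.1 ± 1.07 FPKM in BxPC3 controls, a change of 0.51 (limma adjusted p = 1.59e-05). In PANC-1 SNHG1 averaged 20.01 ± 1.16 FPKM with gemcitabine and 20.1 ± 0.765 FPKM in controls, a change of -0.0090 (95% interval -0.15 to 0.13). For these hosts the treated PANC-1 libraries lay within the range of their controls or overlapped it.

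SNHG17, host of SNORA71 copies, changed by 0.53 in BxPC3 (limma adjusted p = 7.80e-06) and by 0.066 in PANC-1 (limma adjusted p = 0.575). SNHG15, host of SNORA9, changed by 0.36 in BxPC3 (limma adjusted p = 0.000462) and by 0.017 in PANC-1 (limma adjusted p = 0.918). In PANC-1 gemcitabine replicate 1 SNHG15 stood at 10.5 FPKM and SNHG17 at 5.74 FPKM, above the other treated libraries.

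The difference between the lines, gemcitabine change in BxPC3 minus that in PANC-1, was tested for the 18 hosts that passed the filter in both. It was positive for 11 hosts, negative for 1 and not called for 6, which is 66.7% called against a background of 49.3% of 10670 genes, 25.7% positive and 23.6% negative. The median difference was 0.34 for the hosts and 0.022 for all genes. SNHG4, among the 11 positive hosts, passed the BxPC3 filter through its gemcitabine libraries alone. It could enter only by being higher there, so the filter partly set its place in these counts and in the median. With no filter on low values its difference also passed (limma adjusted p = 0.000314). No host was called in opposite directions in the lines, so the 11 positive differences comprised hosts that rose in BxPC3 and rose less or did not pass in PANC-1 (SNHG12, SNHG4, SNHG3, SNHG19, SNHG1, SNHG17, SNHG15 and DANCR), and hosts that fell in PANC-1 and fell less or did not pass in BxPC3 (SNHG6, SNHG7 and SNHG16). The calls of SNHG7, SNHG15 and SNHG19 were marginal, with limma adjusted p = 0.0317, 0.0394 and 0.0366. Each was lost in at least 12 of 25 alternatives, most of them with 1 library left out, and each had a smaller p without PANC-1 gemcitabine replicate 1, with limma adjusted p = 0.000252 for SNHG7, 0.000193 for SNHG15 and 0.00238 for SNHG19.

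**Figure D3:**
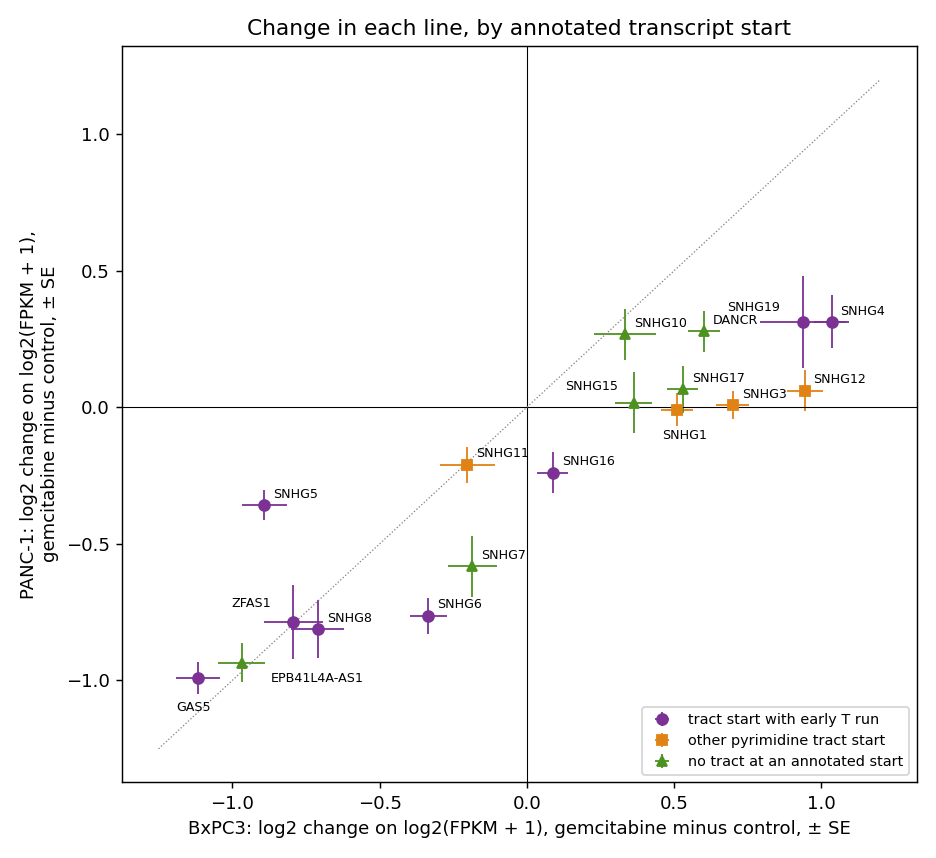
Gemcitabine change in BxPC3 (horizontal) against PANC-1 (vertical), both on log2(FPKM + 1) with SE, for the 18 hosts tested in both lines, and a dotted line where both are equal. Circles mark hosts with an annotated transcript that starts with C and 3 T followed by C or T, squares those with another C and T tract of at least 5 bases, and triangles those with none. GAS5, EPB41L4A-AS1, ZFAS1 and SNHG8 lie at the lower left near the line of equality, and SNHG12, SNHG3 and SNHG1 lie along the horizontal axis with PANC-1 changes near 0.

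The annotated starts were compared with the calls as a description. A transcript that opens with C and at least 4 further C or T was annotated for 12 of the 21 hosts tested in either line (57.1%), against 15.9% of the 14047 genes tested in either line. The share was 55% of 40 protein-coding snoRNA hosts and 5.56% of 18 snoRNP protein genes. The median number of annotated transcripts was 8 for the hosts, 13 for the protein-coding snoRNA hosts and 7 for all tested genes. A gene with more transcripts has more chances to show such a start. By transcript, 12.8% of those of the hosts had such a start, against 2.66% of those of all tested genes. RefSeq, with 1 start per gene, gave a tract for 6 of 24 hosts matched by symbol (25%), against 4.07% of 35116 starts, namely SNHG12, SNHG18, SNHG19, SNHG4, SNHG5 and ZFAS1.

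Among the annotated starts, 8 hosts share an opening of C and 3 T followed by C or T, a grouping chosen after the values were seen and given without a test. These were GAS5, SNHG16, SNHG19, SNHG4, SNHG5, SNHG6, SNHG8 and ZFAS1, 38.1% of the 21 hosts against 3.41% of all tested genes. In BxPC3 5 of the 8 fell, 2 rose (SNHG19 and SNHG4) and 1 did not pass, and in PANC-1 6 fell, 1 rose and 1 did not pass. Among all tested genes 36.1% fell and 37.3% rose in BxPC3, and 24.0% fell and 20.7% rose in PANC-1. The 4 hosts with another tract were SNHG1, SNHG3, SNHG11 and SNHG12, of which 3 rose and none fell in BxPC3, while in PANC-1 1 fell and 3 did not pass. EPB41L4A-AS1 and SNHG7 fell in at least 1 line with no tract at an annotated start. In several hosts the tract belongs to a minority of transcripts, 6 of 29 for GAS5 and 1 of 25 for SNHG1. Which start the cells used was not measured.

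In BxPC3 hosts of both snoRNA classes changed in both directions. There the 6 hosts of box C/D snoRNAs alone comprised 2 that rose, 3 that fell and 1 that did not pass, and the 9 hosts of H/ACA snoRNAs alone comprised 5 that rose, 2 that fell and 2 that did not pass. In PANC-1 none of 7 box C/D hosts rose and 4 fell, and of the 9 H/ACA hosts 2 rose and 4 fell. Among all tested genes 37.3% rose and 36.1% fell in BxPC3, and 20.7% rose and 24.0% fell in PANC-1. The counts per class are small, and a difference between the classes was not tested. GAS5 stands outside these counts because the annotation lists no separate snoRNA gene inside it. The snoRNAs themselves are short and not polyadenylated, so poly-A selected libraries hold few of their reads. Of 11 hosted snoRNA genes that passed the filter in a line, 8 were tested in BxPC3, where 4 were higher (37.3% of all genes) and none lower (36.1%). In PANC-1 7 were tested and none passed (44.8% of all genes). SNORA71A averaged 2.72 FPKM in gemcitabine-treated BxPC3 and 0.215 FPKM in BxPC3 controls, so it passed the filter through its gemcitabine libraries alone. SNORD1B, at 1.53 and 0.360 FPKM, passed mainly through them. The filter thus partly set the count of higher snoRNAs. SNORA71A, SNORA71B and SNORA71C inside SNHG17 were higher in gemcitabine-treated BxPC3, with 48 reads over 4 gemcitabine libraries and 4 over 4 control libraries for SNORA71A, 125 and 52 for SNORA71B, and 82 and 23 for SNORA71C. SNORD1B inside SNHG16, a host that did not pass in BxPC3, was also higher (limma adjusted p = 0.0219), with 17 reads over the gemcitabine libraries and 4 over the controls. SNORD12B inside ZFAS1, a host that fell, had 17 reads with gemcitabine and 4 in controls in BxPC3, under the filter, and 19 with gemcitabine and 23 in controls in PANC-1. Also under the filter in BxPC3, SNORA73B inside SNHG3, a host that rose, had 39 reads with gemcitabine and 6 in controls. SNORD116-24 inside SNHG14 had 13 and 3 there. SCARNA13 inside SNHG10, a host that rose, had 32 and 39 in BxPC3 and did not pass (limma adjusted p = 0.344). The near-identical SNORA71 copies can share reads, and intron RNA and mature snoRNA cannot be told apart here.

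Some hosts overlap or abut other genes, and the sources used here do not say whether counting used strand, which leaves reads in shared bases without a certain owner. ZFAS1 shares 249 exon bases with ZNFX1, a zinc-finger helicase gene on the other strand. ZNFX1 averaged 16.1 ± 1.09 FPKM in gemcitabine-treated BxPC3 and 11.4 ± 0.618 FPKM in BxPC3 controls (SD, n = 4 each), a log2 change of 0.46 (limma adjusted p = 3.13e-05), the opposite direction to ZFAS1. In PANC-1 ZNFX1 changed by 0.11 (limma adjusted p = 0.153). SNHG3 starts 37 bases from RCC1, the guanine exchange factor of Ran, on the same strand and shares 242 exon bases with it. RCC1 changed by 0.53 in BxPC3 (limma adjusted p = 4.13e-07) and by -0.13 in PANC-1 (limma adjusted p = 0.116), so the direction in BxPC3 was that of SNHG3.

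Divergent and antisense neighbours had mixed changes. SLC3A2, an amino acid transporter subunit whose start lies 188 bases from that of SNHG1, changed by 0.16 in BxPC3 (limma adjusted p = 0.0302) and by 0.014 in PANC-1 (limma adjusted p = 0.932). TRAF7, 340 bases from SNHG19, fell by 0.26 on the log2 scale in BxPC3 (limma adjusted p = 5.45e-05), where SNHG19 rose. TRNAU1AP, a selenocysteine tRNA-associated protein gene that overlaps SNHG12 by 8 exon bases, changed by -0.10 in BxPC3 (limma adjusted p = 0.148) and by 0.41 in PANC-1 (limma adjusted p = 0.00152), unlike SNHG12 in either line. SIL1, opposite SNHG4, changed by 0.073 in BxPC3 and -0.30 in PANC-1, GLRX5, opposite SNHG10, by 0.16 and -0.00034, and UBE3A, opposite SNHG14, by 0.055 in BxPC3 and 0.20 in PANC-1, none passing the test. SNHG7 shares 1094 exon bases with FAM69B, which was tested in PANC-1 and changed there by -0.28 (limma adjusted p = 0.151) at 2.57 FPKM with gemcitabine and 3.26 FPKM in controls. SNHG20 shares 460 exon bases with SEC14L1 on the same strand, which rose by 0.55 in BxPC3 and fell by 0.44 in PANC-1 on the log2 scale. SNHG14 shares 141 exon bases with SNRPN on the same strand, which changed by -0.29 in PANC-1 (limma adjusted p = 0.0201). PWAR5 and AC124312.5 overlap SNHG14 on that strand without shared exon bases. They changed there by 0.34 (limma adjusted p = 0.00902) and 0.091 (limma adjusted p = 0.721).

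A further 3 hosts were tested in PANC-1 alone and passed in neither direction. SNHG14, the long transcript of the imprinted Prader-Willi region that runs antisense to UBE3A, averaged 2.19 ± 0.197 FPKM in gemcitabine-treated PANC-1 and 1.98 ± 0.0426 FPKM in PANC-1 controls (SD, n = 4 each), a change of 0.096 (limma adjusted p = 0.232). Without gemcitabine replicate 1 it was 0.14 (limma adjusted p = 0.0169). SNHG20 changed by -0.019 and SNHG21 by 0.066, both hosts of small Cajal body RNAs. In BxPC3, under the filter, SNHG14 averaged 0.497 ± 0.0408 FPKM with gemcitabine and 0.373 ± 0.0248 FPKM in controls, SNHG20 averaged 0.602 ± 0.0265 FPKM with gemcitabine and 0.392 ± 0.0620 FPKM in controls, and SNHG21 averaged 0.894 ± 0.139 FPKM with gemcitabine and 0.566 ± 0.210 FPKM in controls.

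The other hosts stayed under the filter in both lines. SNHG26, host of SNORD93, had 0.885, 0.941, 0.862 and 0.889 FPKM in gemcitabine-treated BxPC3, against 0.245, 0.209, 0.327 and 0.245 FPKM in BxPC3 controls, a ratio of mean FPKM of 3.49 from 312 and 89 reads over 4 libraries each. With no filter on low values, where 14.8% of 36939 genes were called higher in BxPC3, its change was 0.59 ± 0.041 (SE) (limma adjusted p = 1.23e-05). In PANC-1 SNHG26 averaged 0.481 ± 0.0730 FPKM with gemcitabine and 0.479 ± 0.0362 FPKM in controls, and the unfiltered difference between lines was 0.59 (limma adjusted p = 2.33e-06). In that unfiltered fit SNHG20 (0.20, limma adjusted p = 0.00771) and SNHG14 (0.12, limma adjusted p = 0.0368) also passed as higher in BxPC3. SNHG9 averaged 0.807 ± 0.231 FPKM in gemcitabine-treated BxPC3 and 0.528 ± 0.325 FPKM in BxPC3 controls, with overlapping groups. In PANC-1 SNHG9 averaged 0.744 ± 0.382 FPKM with gemcitabine and 0.684 ± 0.118 FPKM in controls. SNHG25, at 0.394 FPKM with gemcitabine and 0.278 FPKM in controls in BxPC3 and at 0.213 FPKM with gemcitabine and 0.219 FPKM in controls in PANC-1, also overlapped. SNHG18, SNHG22 and the SNHG28 identifier ENSG00000256029 stayed under 0.1 FPKM in every library. SNHG27 and the other SNHG28 identifier, ENSG00000188004, were without a read throughout the 16 libraries, and a count of 0 allows up to 3 reads per library.

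Genes that work with the hosts or on their RNA were followed in 5 lists. Among 18 snoRNP proteins and assembly factors, which package and mature snoRNAs, 11 were called higher (37.3% of all genes), 2 lower (36.1%) and 5 neither in BxPC3. Their median change there was 0.22. In PANC-1 4 were higher (20.7% of all genes), none lower (24.0%) and 14 neither, with a median of 0.054. The higher calls in PANC-1 were near the share of all genes. Without PANC-1 gemcitabine replicate 1 the PANC-1 count was 10 higher (32.8% of all genes) and 2 lower (37.0%). It was 2 higher without gemcitabine replicate 2 or control replicate 1 or 4 (17.8% to 18.2% of all genes). NOP56, a core protein of box C/D particles, averaged 54.4 ± 1.82 FPKM in gemcitabine-treated BxPC3 and 26.0 ± 0.465 FPKM in BxPC3 controls (SD, n = 4 each), a log2 change of 1.04 (limma adjusted p = 4.29e-09). Its partner NOP58 rose by 0.76 in BxPC3 and 0.73 in PANC-1. DKC1, the pseudouridine synthase of H/ACA particles, rose by 0.68 in BxPC3, and NOLC1, a chaperone of snoRNPs, by 0.71. In PANC-1 NOP56 rose by 0.20, and the assembly factors PIH1D1 and SHQ1 by 0.27 and 0.19.

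**Figure D4:**
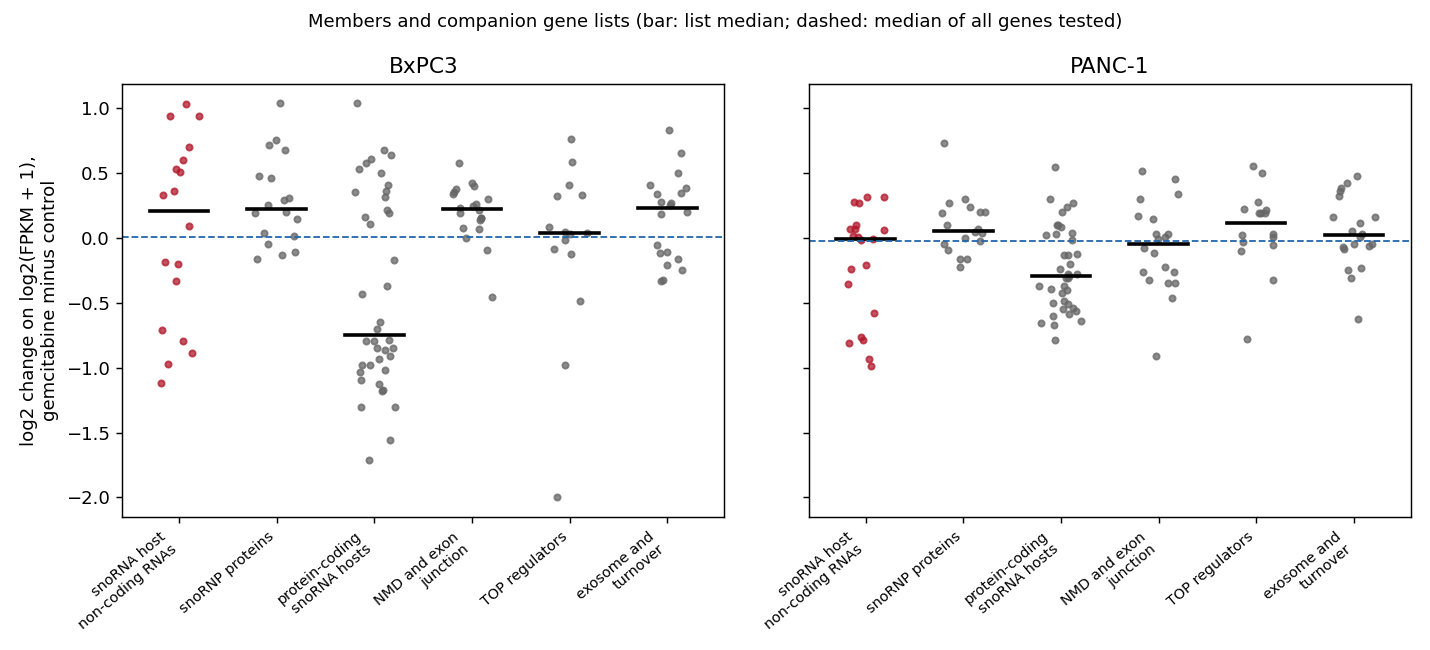
Change on log2(FPKM + 1), gemcitabine minus control, of the tested snoRNA host non-coding RNA genes (red) and of each tested gene of the 5 companion lists (grey), in BxPC3 (left) and PANC-1 (right). Thick bars are list medians, and the dashed line is the median of all genes tested. Protein-coding snoRNA hosts have the lowest median in both panels, -0.75 in BxPC3 and -0.29 in PANC-1.

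Protein-coding snoRNA hosts, mostly genes of ribosomal proteins and translation factors, had more lower than higher calls in both lines. Of 40 tested in BxPC3 13 were higher (37.3% of all genes), 24 lower (36.1%) and 3 neither. Of 39 in PANC-1 5 were higher (20.7% of all genes), 22 lower (24.0%) and 12 neither. Without PANC-1 gemcitabine replicate 1 the PANC-1 count was 9 higher (32.8% of all genes). With 1 library left out in turn the PANC-1 lower count ran from 21 to 27 (19.6% to 37.0% of all genes lower). TPT1, which encodes translationally controlled tumour protein, averaged 70.4 ± 2.51 FPKM in gemcitabine-treated BxPC3 and 234 ± 26.2 FPKM in BxPC3 controls (SD, n = 4 each), a log2 change of -1.71 (limma adjusted p = 1.64e-08). RPL3, a protein of the large ribosomal subunit, changed by -1.30 and the initiation factor EIF4A2 by -1.18 in BxPC3, while NOP56, which also belongs to this list, rose. In PANC-1 the small-subunit genes RPS20 and RPS12 fell by 0.66 and 0.54 on the log2 scale, and RPL7A by 0.50. The median of the list was -0.75 in BxPC3 and -0.29 in PANC-1, against 0.21 and -0.0090 for the non-coding hosts.

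Of 20 factors of nonsense-mediated decay and the exon junction complex, 13 were higher (37.3% of all genes), 1 lower (36.1%) and 6 neither in BxPC3. In PANC-1 3 were higher (20.7% of all genes), 8 lower (24.0%) and 9 neither. The median change was 0.22 in BxPC3 and -0.045 in PANC-1, where 6 were higher without gemcitabine replicate 1 (32.8% of all genes). The helicase DHX34 (0.58), the release factor GSPT1 (0.37) and SMG5 (0.40) rose in BxPC3, where the decapping adaptor PNRC2 was the 1 that fell (-0.46). In PANC-1 UPF3A averaged 5.53 ± 0.475 FPKM with gemcitabine and 11.3 ± 0.474 FPKM in controls (SD, n = 4 each), a log2 change of -0.91 (limma adjusted p = 9.84e-06). NBAS (-0.34) and the exon junction protein RBM8A (-0.33) also fell in PANC-1, and MAGOHB rose (0.52).

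Among 16 genes of mTOR signalling and TOP mRNA control, 5 of 15 tested were higher (37.3% of all genes), 3 lower (36.1%) and 7 neither in BxPC3. In PANC-1 4 were higher (20.7% of all genes), 2 lower (24.0%) and 10 neither. The higher calls were near the share of all genes in both lines. Medians were 0.036 in BxPC3 and 0.11 in PANC-1. DDIT4, a stress-induced inhibitor of mTOR complex 1, averaged 34.8 ± 1.74 FPKM in gemcitabine-treated BxPC3 and 141.8 ± 7.81 FPKM in BxPC3 controls, a log2 change of -1.998 (limma adjusted p = 7.79e-10). It also fell in PANC-1, by 0.78 on the log2 scale. SESN2, another inhibitor, fell by 0.98 in BxPC3 and rose by 0.56 in PANC-1. AKT1S1 (0.59) and the S6 kinase gene RPS6KB2 (0.76) rose in BxPC3. In PANC-1 RPS6KB2 rose (0.50) and the mTOR inhibitor DEPTOR fell (-0.33).

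Of 20 genes of the RNA exosome and nuclear RNA turnover, 12 were higher (37.3% of all genes), 6 lower (36.1%) and 2 neither in BxPC3. In PANC-1 6 were higher (20.7% of all genes), 3 lower (24.0%) and 11 neither. The PANC-1 count was 9 higher (32.8% of all genes) and 5 lower (37.0%) without gemcitabine replicate 1. It was 2 or 3 higher without gemcitabine replicate 2, 3 or 4 or control replicate 1, 2 or 3 (17.5% to 18.4% of all genes). The exosome subunit EXOSC2 rose in both lines, by 0.83 in BxPC3 and 0.48 in PANC-1. EXOSC9 (0.65), the nuclease EXOSC10 (0.41) and the helicase MTREX (0.34) rose in BxPC3. In PANC-1 the nuclear exosome targeting protein ZCCHC8 (-0.62) and EXOSC6 (-0.31) fell, and the nuclease XRN2 rose (0.39). The list medians were 0.23 in BxPC3 and 0.019 in PANC-1.

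**Figure D5:**
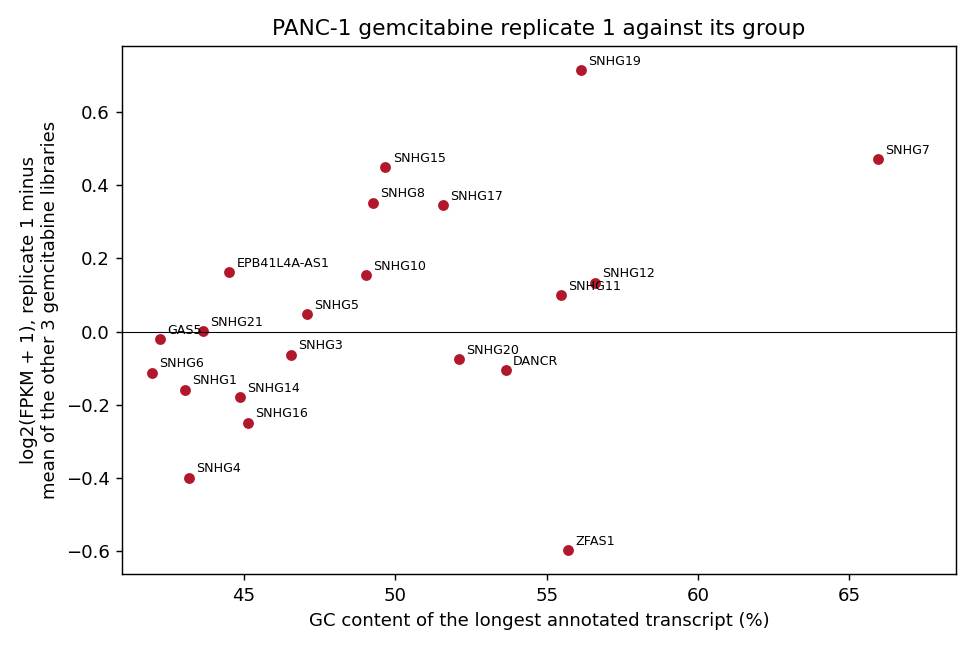
For the 21 hosts tested in PANC-1, log2(FPKM + 1) in gemcitabine replicate 1 minus the mean of the other 3 gemcitabine libraries (vertical) against the GC content of the longest annotated transcript in percent (horizontal). SNHG19 lies highest and ZFAS1 lowest, at GC contents of 56.1% and 55.7%.

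PANC-1 gemcitabine replicate 1 lay above the other 3 treated libraries for 9 of the 21 hosts, below them for 9 and within them for 3. The hosts above had a median GC content of 51.6% and those below 45.1%. SNHG19 stood at 21.9 FPKM there, against 11.4 to 13.9 FPKM in the other 3, and ZFAS1 at 7.14 FPKM, against 11.2 to 11.4 FPKM. With each library's trend over GC content removed, PANC-1 had 4 hosts higher and 9 lower, SNHG19 being the added call (0.32, limma adjusted p = 0.0377), where 65.8% of all genes were called. No other host gained or lost a call in either line or in the difference between lines with that trend removed.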

How the data were processed

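Poly-A RNA of 16 libraries was measured, 4 per group, grouped by sample title. For each line the authors deposited a table of FPKM values by gene and library, per the file headers. Per the submitters' processing notes the tools were CASAVA and HISAT2, with no version; the counter and its strand setting do not appear in the sources used here. The notes name mm10, but all 58735 identifiers are human and 58724 have the start and end of GENCODE 29, so coordinates are GRCh38. FPKM times deposited gene length gave whole reads for 100% of values (within 0.02 reads), which set the depths. Counts of 0 and intervals cover counting or replicate error only.

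limma 3.58.1 (R 4.3.3), with trend and robust, was run per line on log2(FPKM + 1), and as an interaction over 16 libraries, for genes at 1 FPKM or more in at least 4 libraries of the line. The code was tested on simulated data. Alternatives were another pseudocount (0.1), no low-value filter, scaling by median ratio or to TPM, plain limma (neither trend nor robust), limma-voom on recovered reads, protein-coding genes and hosts alone, GC trend removed, a replicate block and each library left out. The members and gene lists were chosen with earlier results of these data known. All tested hosts are named; library values are given for the 6 largest called changes per line and for GAS5, ZFAS1, DANCR and EPB41L4A-AS1, and at most 4 genes of smallest p per list and line. SNHG26 was given by library after its values were seen. Sequences are from GENCODE 29 transcripts. A gene that the naming rule selected in a companion list is not reported here.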

Additional observations from a re-analysis of the deposited data

Results flagged for a closer look

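In 9 of 78 groups of 4 libraries 1 library lay far from the other 3, by a gap that took up most of the group's range (Dixon's test); chance gives about 1 in 20 groups. BxPC3 control replicate 2 was the high library for GAS5 (42.9 FPKM, others 34.4 to 35.6), SNHG7 (17.8 FPKM, others 14.0 to 14.2) and SNHG8 (47.3 FPKM, others 35.4 to 37.3). PANC-1 gemcitabine replicate 1 was high for SNHG17 (5.74 FPKM, others 4.22 to 4.43) and SNHG7 (10.5 FPKM, others 7.05 to 7.60), and low for SNHG4 (2.20 FPKM, others 3.20 to 3.25) and ZFAS1 (7.14 FPKM, others 11.2 to 11.4). DANCR was low in BxPC3 gemcitabine replicate 2 (8.64 FPKM, others 9.57 to 9.72), and GAS5 was high in PANC-1 control replicate 4 (63.2 FPKM, others 56.1 to 56.6).

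For 12 hosts the gemcitabine change differed between the lines by limma's interaction test. The BxPC3 change minus the PANC-1 change on log2(FPKM + 1) was 0.88 for SNHG12, 0.72 for SNHG4, 0.69 for SNHG3, 0.62 for SNHG19, 0.52 for SNHG1, 0.46 for SNHG17 and 0.43 for SNHG6. It was 0.40 for SNHG7, 0.35 for SNHG15, 0.33 for SNHG16, 0.32 for DANCR and -0.53 for SNHG5. SNHG4 entered this test only because its BxPC3 gemcitabine libraries were higher than its controls.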

How the results depend on the processing

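Of the called hosts, 14 of 15 in BxPC3, 8 of 12 in PANC-1 and 9 of 12 in the difference between lines passed under every alternative run, libraries left out included. SNHG10 was the BxPC3 exception; SNHG4, SNHG10, SNHG11 and SNHG16 were the exceptions in PANC-1, and SNHG7, SNHG15 and SNHG19 in the difference. The count of hosts called higher in PANC-1, 3 in the report, was 1 with no filter, where more genes shared the adjustment (10.1% of all genes higher), and ran from 1 to 4 with 1 library left out (17.5% to 32.8% of all genes higher). TPM scaling and limma-voom called SNHG16 higher in BxPC3 (0.18 and 0.16), and the cause was not tested. Called changes of SNHG4 and SNHG10, both low, moved by over 1.5 times. In BxPC3 SNHG4 (1.03) was 1.72 with pseudocount 0.1, 1.57 with TPM scaling and 1.93 by limma-voom, and SNHG10 (0.33) was 0.50 with TPM scaling and 0.55 by limma-voom. In PANC-1 SNHG10 (0.27) was 0.41 with pseudocount 0.1 and 0.40 by limma-voom. The difference between lines of SNHG4 (0.72) was 1.31, 1.17 and 1.51 with pseudocount 0.1, TPM scaling and limma-voom. With each group's gene means removed, the deviations of same-numbered gemcitabine and control libraries of a line correlated between -0.38 and 0.19. The numbers were therefore not taken as pairs. With the replicate block 9 hosts were higher and 6 lower in BxPC3 (35.6% and 34.4% of all genes), 2 higher and 7 lower in PANC-1 (17.4% and 19.7%), and 9 positive and 1 negative in the difference (22.5% and 20.9%). Companion-list counts in PANC-1 moved as well. With the block 1 snoRNP gene, 3 protein-coding hosts and 2 mTOR and TOP genes were higher and 5 decay factors lower. With the GC trend removed 6 decay factors and 8 mTOR and TOP genes were higher (29.9% of all genes), and 3 snoRNP genes and 5 exosome genes lower (35.9%). With no filter 2 snoRNP genes and 2 exosome genes were higher (10.1% of all genes). In BxPC3 the 2 snoRNP genes called lower were none with TPM scaling or limma-voom (30.2% and 32.8% of all genes).

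Signs turned only for changes near 0 that had not passed. In PANC-1 SNHG1 was 0.0038 under TPM scaling, SNHG15 -0.012 by limma-voom, and SNHG3 -0.013 by limma-voom and -0.011 with the GC trend removed. The difference was 0.042 (TPM) and 0.038 (limma-voom) for EPB41L4A-AS1, and 0.010 (pseudocount 0.1), 0.081 (TPM) and 0.074 (limma-voom) for ZFAS1. With 1 library left out, PANC-1 changes ran from -0.029 to 0.031 for SNHG1, -0.095 to 0.077 for SNHG15, -0.021 to 0.10 for SNHG17, -0.033 to 0.00015 for SNHG20, -4.1e-05 to 0.14 for SNHG21 and -0.0085 to 0.023 for SNHG3. Differences ran from -0.084 to 0.044 for EPB41L4A-AS1, -0.029 to 0.12 for SNHG10, -0.053 to 0.086 for SNHG11 and -0.16 to 0.091 for ZFAS1. The causes were not tested.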
